A study of Mus musculus with 4 samples.

Results

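The genes of the interferon response and of MHC class I antigen presentation were examined in ureteric buds of the mouse kidney, from which the collecting ducts form by branching. The list of 33 genes was set by gene name and not by a threshold on their values. Earlier results of these data were known when it was chosen. The array had a named probe for 17305 genes. Probes were assigned by their accession, which gave a probe for 31 of the 33, and 22 of these were bright enough to be tested among 14995 features. Mx1 and Mx2 were not analysed here.

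Intact mouse buds embedded in matrix gel were exposed for 6 h to angiotensin II (AngII, 1e-05 M), a peptide hormone that also acts in the developing kidney, or to media alone. Both groups were cultured in the same medium with 10% serum and the growth factors GDNF and HGF, each at 100 ng/ml. Per the labels there were RNAs numbered 1 and 2 for either condition. AngII and media RNA of the same number were hybridised together on 2 Agilent arrays of 2 colours, once with AngII in the red dye Cy5 and once in the green dye Cy3. The labels give neither strain nor age and do not say that the numbered RNAs came from separate animals or cultures.

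Cells answer interferons through receptors that activate the kinases JAK1, JAK2 and TYK2 and the STAT transcription factors. STAT2 and IRF9 act in a complex that binds the interferon-stimulated response element (ISRE), and the gamma-activated site (GAS) is a further motif of the pathway. The genes so induced encode antiviral effectors, sensors of viral RNA, GTPases that attack intracellular pathogens, and the machinery that loads peptides on MHC class I molecules. Class I genes are also expressed in the absence of infection in most nucleated cells.

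Of 41174 probes, 19028 to 21922 cleared background, depending on array and dye. After the dye orientations were averaged, the log2 ratios of replicates 1 and 2 correlated at r = 0.98 across features, which are not independent replicates, and the SD of the difference between them was 1.02 times that of array noise. Single arrays of the same RNAs in opposite dyes correlated at only 0.673 and 0.681, and the SD of the dye difference divided by 2 was 0.164, against 0.037 for noise. The replicates were therefore treated as 1 pair of RNAs. Accordingly, limma's p-values reflect hybridisation spread alone, and the difference between AngII and media has no check in a second pair. Ureteric bud markers were detected as 13 of 14, the exception being Ret, whose probe was above background on 0 arrays. Of the 13, 7 rose and 4 fell (39.1% and 38.1% of all features). Their log2 ratios ran from -0.59 to 1.53, around a median of 0.10. Their summed levels overlapped, at 17.76 to 17.91 in AngII and 17.88 to 18.25 in media channels. Leukocyte markers were tested as 9 of 16, and their summed log2 level was 10.1 to 10.3 in AngII and 10.2 to 10.3 in media channels, with Cd53, Lyz2 and Itgam above background on 0 arrays. Erythroid markers, at 14.9 to 15.2 in AngII and 12.4 to 12.7 in media channels, did not overlap. Summed stromal levels did not overlap either, at 15.58 to 15.79 in AngII and 15.31 to 15.56 in media channels. Of the 10 stromal markers 4 rose, 2 fell and 4 did not pass, around a median log2 ratio of 0.06. Acta2 rose most among them, 3.24-fold. Of 6 nephron progenitor markers 5 fell and 1 rose, where 38.1% of all features were lower and 39.1% higher. The median log2 ratio of the 6 was -0.37. Their summed levels overlapped, at 12.4 to 12.65 in AngII and 12.49 to 12.66 in media channels. For Six2 and Crym the sign followed the dye. The part of erythroid, stromal and progenitor cells in the values below was not tested. Endothelial markers were tested as 11 of 12 and lay at 12.1 to 12.2 in both RNAs, with 2 higher and 7 lower. In bulk RNA fewer cells of a type and less RNA per cell cannot be told apart.

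The promoters that carry the 2 interferon response motifs are shown first, because they differ in what their genes did. RefSeq promoters of GRCm38.p6, from 250 bases before to 50 after an annotated start, were found for 25 of the 33 genes. The ISRE core was searched as GAAANNGAAA, the GAS as TTCNNNGAA and a kappa B (NF-kB) motif as GGGANNNNCC, on both strands and with overlapping matches counted. At least 1 ISRE match was found in 14 of the 25 genes (56.0%), against 3.99% of all 27025 genes in the table. The GAS was matched in 7 of 25 (28.0%, against 9.55%), and the kappa B motif in 9 of 25 (36.0%, against 22.92%). A match is a description of letters and not a bound site. Variants of these cores were not counted, so a promoter without a match can still hold a related element.

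Upstream stretches with ISRE matches in capitals are given for 4 genes that were higher under AngII, Bst2 (chr8:71537557-71537632, minus strand), Oas1a (chr5:120907526-120907575, minus), B2m (chr2:122147518-122147587, plus) and Gbp2 (chr3:142620574-142620643, plus). Of these, Oas1a was bright enough to be tested only through AngII.
Bst2: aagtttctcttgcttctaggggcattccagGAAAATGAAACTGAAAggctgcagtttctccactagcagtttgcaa
Oas1a: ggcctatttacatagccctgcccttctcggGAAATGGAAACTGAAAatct
B2m: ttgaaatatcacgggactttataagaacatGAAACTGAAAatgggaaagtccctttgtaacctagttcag
Gbp2: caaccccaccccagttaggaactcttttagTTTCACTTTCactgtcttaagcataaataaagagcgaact

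The same motif stands upstream of 3 genes that were not higher, Isg15 (chr4:156200845-156200926, minus), Ifit3 (chr19:34583343-34583446, plus) and Rsad2 (chr12:26456533-26456602, minus). Isg15 held 3 overlapping matches, more than any of the 4 genes above.
Isg15: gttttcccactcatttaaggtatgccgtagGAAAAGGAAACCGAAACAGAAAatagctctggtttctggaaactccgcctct
Ifit3: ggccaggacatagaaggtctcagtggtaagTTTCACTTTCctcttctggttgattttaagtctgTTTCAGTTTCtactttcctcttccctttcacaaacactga
Rsad2: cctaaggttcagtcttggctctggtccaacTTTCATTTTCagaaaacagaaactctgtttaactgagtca

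Other promoters are shown for genes without a match to the exact ISRE core in this window. These are the class I heavy chain genes H2-K1 (chr17:34000418-34000488, minus) and H2-D1 (chr17:35262893-35262963, plus), with the kappa B match in capitals, and the transcription factor gene Irf1 (chr11:53769894-53769962, plus), with the GAS in capitals. The H2-K1 and H2-D1 stretches were the same at 70 of 71 bases, and at 166 of 190 bases (87.4%) of the upstream sequence aligned on that match without gaps.
H2-K1: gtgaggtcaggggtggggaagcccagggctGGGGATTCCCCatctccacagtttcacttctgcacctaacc
H2-D1: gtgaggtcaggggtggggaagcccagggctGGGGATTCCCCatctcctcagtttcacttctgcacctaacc
Irf1: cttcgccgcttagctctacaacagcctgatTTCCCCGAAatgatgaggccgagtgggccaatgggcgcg

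Between AngII and media these genes differed in both directions rather than being higher or lower as a set. Of the 22 tested genes 12 rose, 6 fell and 4 did not pass at a limma adjusted p under 0.05, which is 81.8% passing where 77.2% of all features passed (39.1% higher, 38.1% lower), so the share that passed is near the background. By size, 5 genes rose at least 1.5-fold with one sign on all 4 arrays and 0 fell by that much, against 5.49% of all features higher and 5.38% lower. The 5 were Bst2, Ifitm3, Oasl2, Ifi35 and B2m. The 12 that rose include Oas1a, which passed the brightness filter only through AngII. A stricter filter, which asks for brightness in both RNAs, left it out. Then 11 of 21 rose and 6 fell, where 79.1% of all features passed. The median log2 ratio was 0.17 over the 22 genes and 0.00 over all features, and the median absolute log2 ratio 0.36 and 0.19. Ratios were above 0 on all 4 arrays for 12 genes and below 0 on all 4 for 6 (81.8% with one sign, against 59.1% of all features). The SE of a mean log2 ratio lay between 0.034 and 0.037.

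With the replicate block on the 4 single arrays, 8 rose and 3 fell in limma, where 30.9% of all features passed. That fit does not average the dye orientations and has no term for dye, so dye differences count as error in it. In it Irf9 (limma adjusted p = 0.0777), Rsad2 (0.155), Usp18 (0.0714), Xaf1 (0.0549), Igtp (0.11), Irgm1 (0.151) and Tapbp (0.0634) no longer passed. The parts of the block and of the dye in this loss were not tested. Without replicate 1, on 2 arrays that differ in dye, 7 rose and 0 fell (2 lower at an unadjusted p under 0.05), where 19.5% of all features passed. Without replicate 2, 5 rose and 0 fell (2 lower at an unadjusted p under 0.05), where 14.8% passed. Bst2, Ifitm3, Oasl2, Ifi35 and B2m passed in each of these fits. The 5 rises of at least 1.5-fold were counted as 5 in each of these.

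**Figure D1:**
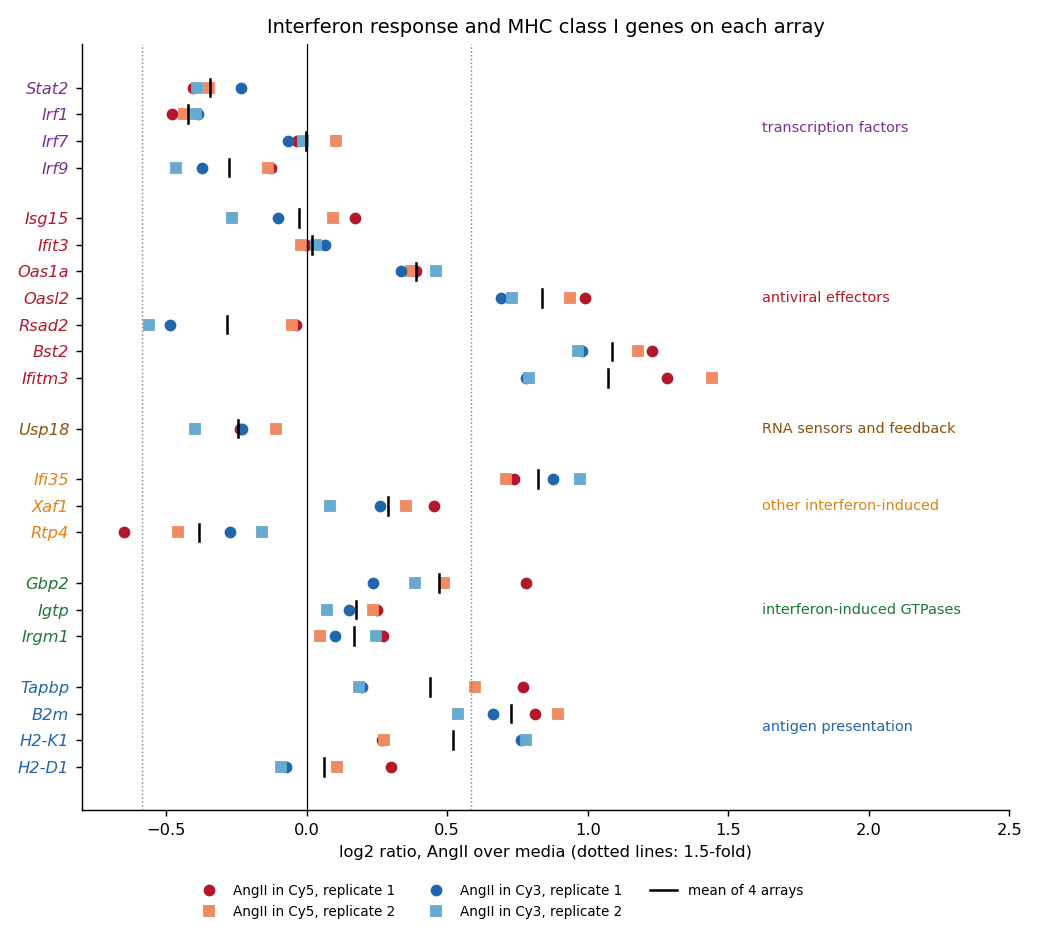
Log2 ratio of AngII over media (x axis, log2 units) for the 22 tested genes, grouped by role. Each point is 1 array, the black bar is the mean of the 4 arrays, and dotted lines mark 1.5-fold. Bst2, Ifitm3, Oasl2, Ifi35 and B2m have means beyond the upper line, and no gene has a mean beyond the lower one.

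The transcription factors of the pathway were lower or did not pass, with a median of -0.31. Of the 4, 3 fell, where 38.1% of all features did. Irf1 encodes a factor induced by interferon gamma and by NF-kB. Its log2 ratio was -0.48 and -0.44 on the 2 arrays with AngII in Cy5 and -0.38 and -0.39 on those with AngII in Cy3, a fall by 0.42 (1.34-fold, limma adjusted p = 5.97e-11). The AngII levels of Irf1 all lay below its media levels. Another Irf1 probe, dimmer, had -0.11, with both signs over the arrays.

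Stat2, the STAT specific to type I and type III interferon signalling, had -0.41, -0.35, -0.23 and -0.39 and fell by 0.34. Irf9, its DNA-binding partner, had -0.13 and -0.14 with AngII in Cy5 but -0.37 and -0.47 with AngII in Cy3, a mean of -0.28. Both stayed below 0 on all 4 arrays, while the normalised AngII and media levels overlapped between arrays. Irf7, which amplifies the type I interferon response, had a mean of 0.00 (-0.07 to 0.10) and did not pass. Its mean log2 intensity of 6.30 lies near background, where ratios are compressed: in the dimmest of 5 equal brightness classes (mean 6.46) the SD of the log2 ratio was 0.175, against 0.441 in the middle class. A small ratio of so dim a gene does not show a lack of change.

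Among the 12 antiviral effectors 7 were tested, of which 4 rose and 1 fell, where 39.1% of all features were higher and 38.1% lower. The median of the 7, 0.39, is the ratio of Oas1a, which passed the brightness filter only through AngII. So neither the count nor the median stands as support. With the stricter filter, which leaves Oas1a out, the median of the other 6 was 0.43. The largest rise was that of Bst2 (tetherin), which holds budding enveloped viruses on the cell surface. Its ratio was 1.23 and 1.18 with AngII in Cy5 and 0.98 and 0.96 with AngII in Cy3, a mean of 1.09 or 2.13-fold (adjusted p = 1.53e-18 in limma). The absolute ratio of Bst2 was at the 98.43 percentile of all features. All 4 of its AngII levels, 11.98 to 12.25 on the log2 scale, lay above its media levels, 10.93 to 11.07. The first rank of Bst2 depended on the processing. With Agilent's processed signals Oasl2 had 1.55 and Bst2 1.08, and with AngII in Cy5 only Ifitm3 had 1.36 and Bst2 1.20.

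Ifitm3, a membrane protein that blocks the entry of viruses, had 1.28 and 1.44 with AngII in Cy5 and 0.78 and 0.79 with AngII in Cy3, a mean of 1.07 (2.11-fold). Ifitm3 thus held its direction but with the widest gap between dye orientations among the 22 genes, 0.288 as the difference divided by 2. Oasl2, a member of the oligoadenylate synthetase family, had 0.99, 0.94, 0.69 and 0.73, a mean of 0.84 (1.79-fold). Oas1a, which makes the oligoadenylate that activates RNase L, had 0.39, 0.37, 0.34 and 0.46, a mean of 0.39 (1.31-fold), at a dim level that was above background in 3 of 4 media channels.

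Isg15, Ifit3 and Rsad2 of this group did not rise. Isg15 encodes a ubiquitin-like protein joined to other proteins after interferon. It had 0.17 and 0.09 with AngII in Cy5 and -0.10 and -0.26 with AngII in Cy3, so its sign followed the dye and its mean was -0.03 (adjusted p = 0.519 in limma). Ifit3, which takes part in the recognition of foreign RNA, had 0.02 (-0.02 to 0.07) and did not pass. Rsad2 (viperin), an antiviral enzyme, had -0.04 and -0.05 with AngII in Cy5 and -0.49 and -0.56 with AngII in Cy3 at its brightest probe, a mean of -0.28 that passed. The other tested probes of Rsad2 had 0.03 and -0.02, each with both signs, so its fall rests on 1 of 3 probes.

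Ifit1, Ifit2 and Oas2 were too dim to test in both RNAs, as were the RNA sensors Ifih1 (MDA5) and Dhx58 (LGP2), Parp9, Gbp3, Tap1 and Tap2. These 9 genes had 12 probes with mean log2 intensities of 6.00 to 6.20 and mean log2 ratios of -0.10 to 0.13. Usp18, which removes ISG15 and restrains the type I receptor, was the tested member of the sensor and feedback group. Its ratios were -0.24, -0.11, -0.23 and -0.40, and it fell by 0.24.

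**Figure D2:**
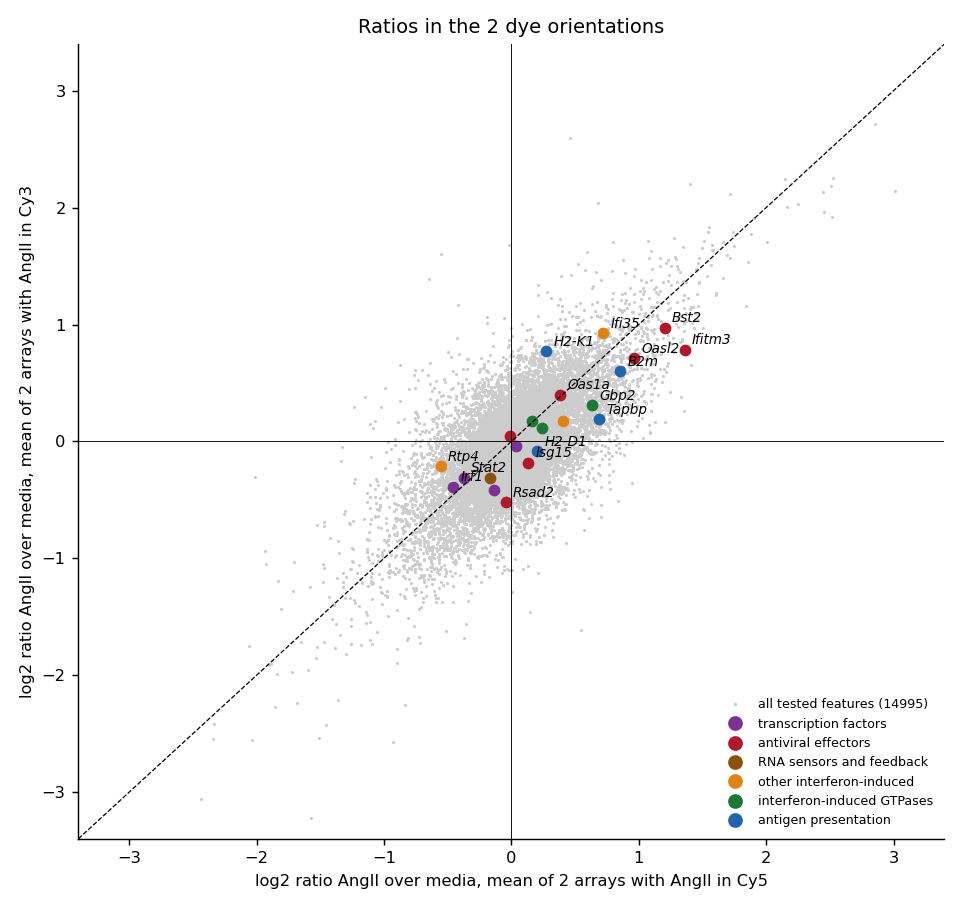
Mean log2 ratio of AngII over media on the 2 arrays with AngII in Cy5 (x axis) against the 2 arrays with AngII in Cy3 (y axis), for all 14995 tested features (grey) and the 22 genes (coloured by role). Points on the dashed line have the same ratio in both orientations; Isg15, H2-D1 and, near 0, Irf7 lie in the lower right quadrant, where the sign follows the dye.

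Genes of less defined roles moved both ways. Ifi35, an interferon-induced leucine zipper protein, had 0.74, 0.71, 0.88 and 0.97, a mean of 0.82 (1.77-fold), and was higher in AngII on every array with no overlap of levels. Xaf1, a proapoptotic antagonist of XIAP, had a mean of 0.29 (0.08 to 0.45) and rose. Rtp4, a receptor chaperone induced by interferon, had -0.65, -0.46, -0.27 and -0.16 and fell by 0.38.

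Of the 3 tested interferon-induced GTPases, all rose in the fit of averaged arrays, and Gbp2 alone also with the replicate block (limma adjusted p = 0.0336). Among all features 39.1% rose in the fit of averaged arrays, and 30.9% passed in either direction with the block. Gbp2, a guanylate-binding protein that acts on pathogen vacuoles, had 0.78, 0.49, 0.24 and 0.38, a mean of 0.47 (1.39-fold). The immunity-related GTPases Igtp (Irgm3) and Irgm1 rose by 0.18 (0.07 to 0.25) and 0.17 (0.05 to 0.27). With processed signals neither passed (limma adjusted p = 0.134 and 0.176). Another Irgm1 probe had 0.22. The Gbp2 and Irgm1 levels in AngII lay above all those in media, those of Igtp overlapped. Over the 22 genes levels did not overlap for 12, and over all features for 33%.

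In antigen presentation, 3 of the 4 tested genes rose at their brightest probe and 1 did not pass, where 39.1% of all features rose. The median of the 4 was 0.48. B2m, the light chain of every class I molecule, had 0.81 and 0.89 with AngII in Cy5 and 0.66 and 0.54 with AngII in Cy3, a mean of 0.73 (1.66-fold, adjusted p = 2.69e-15 in limma). The B2m levels in AngII lay above all those in media. A second B2m probe, printed in 10 spots on each array, was above background on 0 arrays and had a ratio of 0.02, so the rise rests on 1 probe.

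The class I heavy chain gene H2-K1 was read by 3 probes that disagreed. The brightest, printed in 10 spots per array, had 0.27 and 0.28 with AngII in Cy5 and 0.76 and 0.78 with AngII in Cy3, a mean of 0.52 (1.44-fold) that passed. The 2 dimmer probes, at mean log2 intensities of 10.7 and 10.3, had means of -0.10 and -0.16. H2-D1 had 0.30 and 0.11 with AngII in Cy5 and -0.07 and -0.09 with AngII in Cy3, a mean of 0.06 that did not pass, and 0.16 (0.09 to 0.19) at a second probe. The class I heavy chain genes are related members of a multigene family, so a probe may read more than its own transcript. That was not tested, and the split among these genes is uncertain.

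Tapbp (tapasin), which bridges class I molecules to the peptide transporter, also split by probe. The bright probe, of 1 RefSeq accession, had 0.77, 0.60, 0.20 and 0.19, a mean of 0.44 that passed. The dimmer probe, of another accession of the gene, had -0.17, -0.29, -0.82 and -0.93, a mean of -0.55. The directions of H2-K1 and Tapbp therefore depended on the probe, while that of B2m was read by a single detected probe. Tap1 and Tap2, the peptide transporter itself, were too dim to test.

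**Figure D3:**
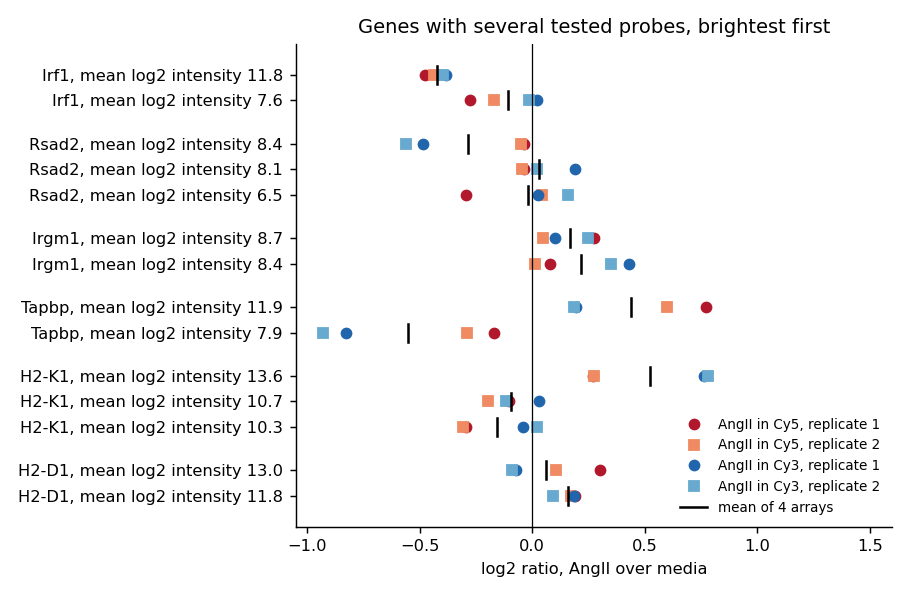
Log2 ratio of AngII over media (x axis, log2 units) at every tested probe of the 6 genes with 2 or more, the brightest probe of each gene first. Points are arrays and black bars are means of 4 arrays. The Tapbp probes lie on opposite sides of 0, and the brightest H2-K1 probe lies above 0 while its other probes have means below it.

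Antiviral effectors and antigen presentation were then set side by side. On the 2 arrays with AngII in Cy5 the median of the 7 effectors was 0.39 and 0.37 and that of the 4 presentation genes 0.54 and 0.44. With AngII in Cy3 the effectors had 0.34 and 0.46 and the presentation genes 0.43 and 0.36. On each array the effector median is the value of the dim gene Oas1a, which passed the brightness filter only through AngII. The difference, effectors minus presentation, was -0.15, -0.07, -0.09 and 0.10 over the arrays, and -0.09 for the means, so the order of the groups turned on 1 array. With the mean of a gene's tested probes the difference was 0.29, and with Agilent's processed signals 0.60. The group medians themselves moved with the processing. That of the presentation genes was 0.48, but 0.10 with the mean of probes. That of the effectors was 0.39, but 0.02 with no filter on dim probes and 1.03 with processed signals. All features had medians of -0.03 to 0.04 over the arrays. No difference between the groups was shown in either direction, and 4 arrays of 1 pair of RNAs allow no exact test to reach 0.05.

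**Figure D4:**
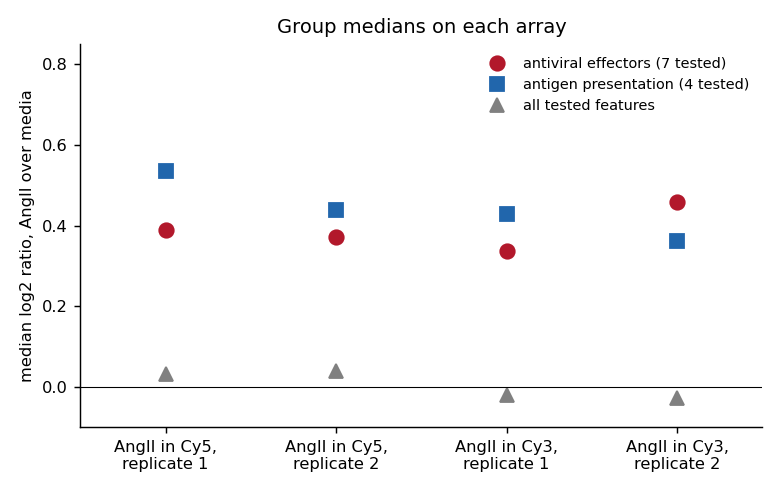
Median log2 ratio of AngII over media (y axis, log2 units) on each of the 4 arrays for the 7 tested antiviral effectors, the 4 tested antigen presentation genes and all tested features. Both group medians lie between 0.34 and 0.54 on every array, and which of them is higher differs between arrays.

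Within each group the genes differed more than the groups did. The effectors ran from -0.28 (Rsad2) to 1.09 (Bst2), and the presentation genes from 0.06 (H2-D1) to 0.73 (B2m). Bst2 and Ifitm3, the effectors with the largest means here, are bright, at mean log2 intensities of 11.6 and 11.2. The untested Ifit1, Ifit2 and Oas2 are at background. With processed signals the dimmer Oasl2, at a mean log2 intensity of 7.18, rose most, by 1.55.

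ISRE matches stood in genes of every kind of response. An ISRE match was found in 7 of 12 genes that rose, 2 of 4 that fell, 2 of 4 that did not pass and 3 of 5 that were too dim to test. Oasl2 and Ifi35, which rose at least 1.5-fold, had no ISRE match in this window, and Ifitm3 had its matches just after the start, from positions 2 and 19. Bst2 had matches from positions -130 and -124, and Isg15 from -78, -72 and -66. The GAS was matched in 5 of 12 genes that rose and in 1 of 4 that fell, Irf1. The kappa B motif was matched in 5 of 12 genes that rose, 2 of 4 that fell, 1 of 4 that did not pass and 1 of 5 too dim to test. The matched genes include both heavy chain genes and B2m, the last from position -127. These shares come from few genes and carry no test. Oas1a, counted among the 12 for both ISRE and GAS, passed the brightness filter only through AngII. Rsad2, counted for both ISRE and kappa B among those that fell, did so at 1 of 3 probes. H2-K1, counted for kappa B among those that rose, also did so at 1 of 3 probes.

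**Figure D5:**
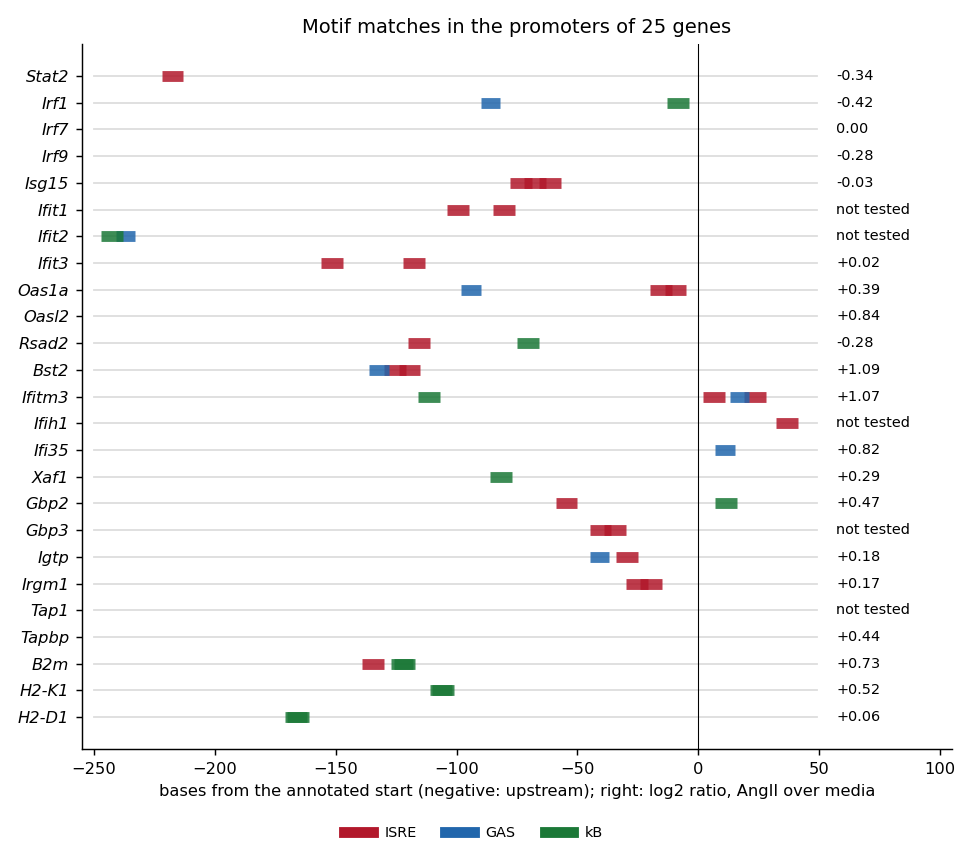
Matches to the ISRE, GAS and kappa B motifs (coloured blocks) along the promoters of 25 genes, by distance in bases from the annotated start (x axis; negative is upstream; the first start listed for each gene). The log2 ratio of AngII over media stands at the right, and ISRE blocks occur beside ratios above 0 (Bst2, 1.09) and below 0 (Rsad2, -0.28).

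Upstream of these genes, interferon ligands were at or near background. Of 21 ligand genes 12 had a named probe and 6 could be tested, with 5 that fell and 0 that rose and a median of -0.25, where 38.1% of all features were lower. Ifna12 had -0.58, Ifna2 -0.47, Ifnb1 -0.35 and Ifnz -0.14 (-0.41 to 0.19), at mean log2 intensities of 6.34 to 7.19. Probes of the Ifna genes can read near-identical copies. Ifng, the type II ligand, was above background on 0 arrays, as were Ifne, Ifnk and Ifnl3.

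The receptors, kinases and signal regulators went both ways, with 8 of 17 higher, 5 lower and 4 not passing, around a median of 0.02. For comparison, 39.1% of all features were higher and 38.1% lower. Ifnlr1, the receptor chain for type III interferons of epithelia, rose by 0.95 (0.92 to 1.00), the one change in this list of at least 1.5-fold. The interferon gamma receptor chains were opposed, Ifngr1 at 0.37 (0.28 to 0.43) and Ifngr2 at -0.31 (-0.57 to 0.03). The type I receptor chains Ifnar1 and Ifnar2 had 0.08 (-0.26 to 0.42) and 0.02 (-0.26 to 0.29). The kinase genes Jak1, Jak2 and Tyk2 had 0.20, 0.26 (-0.02 to 0.55) and -0.10 (-0.38 to 0.13). For Ifngr2, Ifnar1, Ifnar2, Jak2 and Tyk2 the arrays disagreed in sign. Il10rb was not analysed here.

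Genes that sense nucleic acids rose in 7 of 13 tested and fell in 5, with a median of 0.09. Over all features, 39.1% were higher and 38.1% lower. Trim25, a ubiquitin ligase that activates RIG-I, rose by 0.81 (0.66 to 1.07), Eif2ak2 (PKR) by 0.58, the Toll-like receptor adaptor Myd88 by 0.41 and Ddx58 (RIG-I) by 0.26. Of 18 other interferon-stimulated genes tested from a list of 35, 12 rose and 4 fell, and their median was 0.36. Of these, 6 were at least 1.5-fold higher and 1 lower, against 5.49% and 5.38% of all features. The lists were chosen with earlier results of these data known, so such shares are a description only. Nmi, whose product binds that of Ifi35, rose by 1.28 (1.13 to 1.45), Lgals3bp by 1.20 and Tor3a by 0.81, while the chemokine gene Cxcl10 fell by 1.27.

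Genes of the proteasome that makes class I peptides were among the higher ones. Of 15 other presentation genes tested, 10 rose and 2 fell, where 39.1% of all features were higher and 38.1% lower. The median of the 15 was 0.31, and 4 rose at least 1.5-fold, against 5.49% of all features. These were the immunoproteasome subunit genes Psmb10 at 0.91 (lowest array 0.77), Psmb8 at 0.89 (0.78 to 1.11) and Psmb9 at 0.59 (0.48 to 0.73), and Psme2, a subunit of the proteasome activator, at 0.59 (0.48 to 0.69). All 4 lay above 0 on all 4 arrays. The constitutive counterparts Psmb5, Psmb6 and Psmb7 had 0.29 (0.01 to 0.57), 0.12 (-0.11 to 0.36) and 0.09 (-0.17 to 0.40). MHC class II genes, which mark antigen-presenting cells, were tested as 5, of which 2 rose and 1 fell, around a median of 0.00. Cd74, the class II invariant chain, had 0.57 and H2-DMb1 0.51, while H2-DMa had -0.12 (-0.32 to 0.10) and H2-Ab1 -0.02 (-0.20 to 0.18). Among leukocyte markers 2 of 9 tested rose and 6 fell, with Ptprc at 0.64 (0.39 to 0.92) near background and a median of -0.17. The part of leukocytes in the class II values was not tested.

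In the authors' deposited table, Bst2 had a log2 ratio of 1.07, Ifitm3 1.07, Oasl2 1.00, Ifi35 0.92 and B2m 0.78. The same table gave -0.45 for Irf1, -0.36 for Stat2 and -0.03 for Isg15. In the authors' deposited table the 2 Tapbp probes had 0.42 and -0.62, and the 3 H2-K1 probes 0.54, -0.11 and -0.17, so the split between probes is present in both sets of values.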

How the data were processed

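Scanner output came from Agilent's Feature Extraction, version 10.5.1.1 per the file headers. Used from it were the deposited intensity of each spot (median over its pixels), its local background and Agilent's processed intensity; the deposited log10 ratio of red over green was not used for tests. The authors' deposited table gives log2 ratios with adjusted p-values, a mean intensity in log2 and a score of -1, 0 or 1 for direction. Its normalisation is not given in the sources used here, beyond limma in the submitters' processing notes. Its log2 ratios correlated with those computed here at r = 0.995 across 14995 features.

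In R 4.3.3 with limma 3.58.1, background was corrected by normexp (offset 50), loess was applied within arrays with control spots at weight 0, and outlier spots were left out. Ratios of swapped arrays changed sign, and all are AngII over media. The 2 arrays of a number, which hold the same 2 RNAs, were averaged, and the ratios tested against 0 with lmFit, eBayes and Benjamini-Hochberg adjustment over all features. A probe was tested if well above background on all 4 arrays for AngII or on all 4 for media (19393 of 41174 probes). A gene stands by its brightest tested probe. Levels are channel intensities after loess and Aquantile, on the log2 scale. Names came from accessions matched to RefSeq genes of GRCm38.p6 (25097 probes). In simulated data with the measured noise for this comparison over 14995 features, 50 of 50 genes changed by 0.25 were called, and 5 of 14795 unchanged features.

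Every member is named, as are all receptors and kinases of the signalling list and, from each other pathway list, the 4 tested genes with the largest absolute log2 ratio. Ifng, Ifne, Ifnk, Ifnl3 and the cell markers Ret, Cd53, Lyz2, Itgam, Acta2, Six2, Crym and Ptprc are named outside this rule, after their values were seen. Rigi is carried under its older symbol Ddx58. Members and lists were chosen with earlier results of these data known. Alternatives changed the background correction, normalisation, filter, probe rule, replicate block, dye orientation, replicates and source of ratios. A gene of the signalling list is not reported here by name.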

Additional observations from a re-analysis of the deposited data

How the results depend on the processing

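The difference between effectors and presentation genes turned sign with no background correction (0.0471), processed signals (0.60), the mean of a gene's probes (0.29), AngII in Cy3 only (0.0021) and the authors' deposited table (0.0458). It was -0.17 with median centring, -0.23 with no filter on dim probes, and -0.14 to -0.05 when 1 replicate was left out. At least 1.5-fold higher were 3 genes with median centring, where 5.54% of all features passed that size in either direction (10.9% otherwise), 7 with processed signals (22.9%), 7 with AngII in Cy5 only (12.5%) and 6 with AngII in Cy3 only (14.8%). The median over the genes was 0.0625 with no filter, 0.10 with the mean of probes and 0.22 with AngII in Cy5 only. With the replicate block 3 genes fell and 8 rose. Leaving out 1 replicate, 5 to 7 rose and 0 fell, with fewer arrays in the fit. Irf7 was 0.24 with processed signals, Tapbp -0.0571 with the mean of its probes, and Isg15 0.13 with AngII in Cy5 only. Of 263 values of single genes under all alternatives, 222 were counted as unchanged, 34 no longer passed, 4 passed anew and 3 turned sign. The 222 kept their side of the threshold. They include values that changed sign without passing in either fit, such as Ifit3 at -0.0647 with processed signals. The 3 that turned passed in the main or the alternative fit. Except for the settings named, the cause was not tested. Signal near background limits what can be said of Irf7, Ifit3, Oas1a and the 9 untested genes.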
